A study of Mus musculus with 8 samples.

Results

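The genes described are 10 receptor subunits for itch-related and inflammatory cytokines outside the interleukin-6 family: Il4ra, Il13ra1, Crlf2, Il10rb, Il17ra, Il1r1, Il1rap, Tnfrsf1a, Ifngr1 and Ifnar1. They were chosen by symbol from a table of 40800 genes, and all 10 passed the filter on low values. RNA was sequenced from dorsal root ganglia, which hold the cell bodies of sensory neurons, of 4 wild-type C57BL/6 mice and 4 mice homozygous for a Tmem184b gene trap on the C57BL/6 background, all 6 months old. In a gene trap the inserted cassette takes over splicing and truncates the message. The labels state neither sex nor litter, and p-values measure the spread between these mice. The labels number the wild types 1, 3, 4 and 8 and the mutants 1 to 4, and values below follow that order.

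Most cytokine receptors of these families work as pairs of chains, 1 of which usually binds the ligand while the other is shared or completes the signal. Tnfrsf1a is not part of such a pair. Il4ra joins Il13ra1 or the common gamma chain Il2rg, Crlf2 joins Il7r, and Il10rb, Ifngr1 and Ifnar1 belong to the class of interleukin-10 and interferon receptors; all of these signal through Janus kinases and STAT transcription factors. Il17ra, the Il1r1 and Il1rap pair, and Tnfrsf1a instead use adaptor proteins that lead to NF-kB. Sensory neurons are known to respond directly to interleukin-4, interleukin-13 and thymic stromal lymphopoietin, which act in itch, and to interleukin-1, interleukin-17 and tumour necrosis factor, which act in inflammatory pain. Most of these receptors are also made by glia, macrophages, fibroblasts and endothelium, and in bulk tissue fewer cells of a type and less RNA per cell cannot be told apart.

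Values are moderated log2 CPM, the logarithm of reads scaled to the library total after a small prior count is added. Library totals were 6183618 to 7983821 reads, so that 1 read was worth 0.125 to 0.162 CPM. Tmem184b checked the labels: it lay between 7.36 and 7.51 log2 CPM in the wild types and between 2.47 and 3.10 in the mutants. Neuronal markers were abundant in every library, with a summed level of 7 genes of 8148 to 8981 CPM. Markers of other cells in the tissue were also present.

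Of the 10 receptors, Tnfrsf1a alone passed the test, and it was higher in the mutant. No receptor passed in the lower direction. The test was limma across 15030 genes, with a call at a Benjamini-Hochberg adjusted p under 0.05. By that rule 5.46% of all genes tested were called, 2.81% higher and 2.64% lower, so a count of 1 in 10 is near the background. At an unadjusted p under 0.05 there were 4 receptors, Tnfrsf1a and Ifngr1 higher and Crlf2 and Ifnar1 lower, beside 21.3% of all genes. With voom, a count-based limma test on the recovered reads, Tnfrsf1a was again the 1 receptor called, and 0 were called lower. The 10 differences ran from -0.45 for Crlf2 to 0.40 for Tnfrsf1a on the log2 scale, with a median of 0.06 against 0.07 over all genes tested. Of the 10, 5 were above 0, beside 64.4% of all genes tested.

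**Figure D1:**
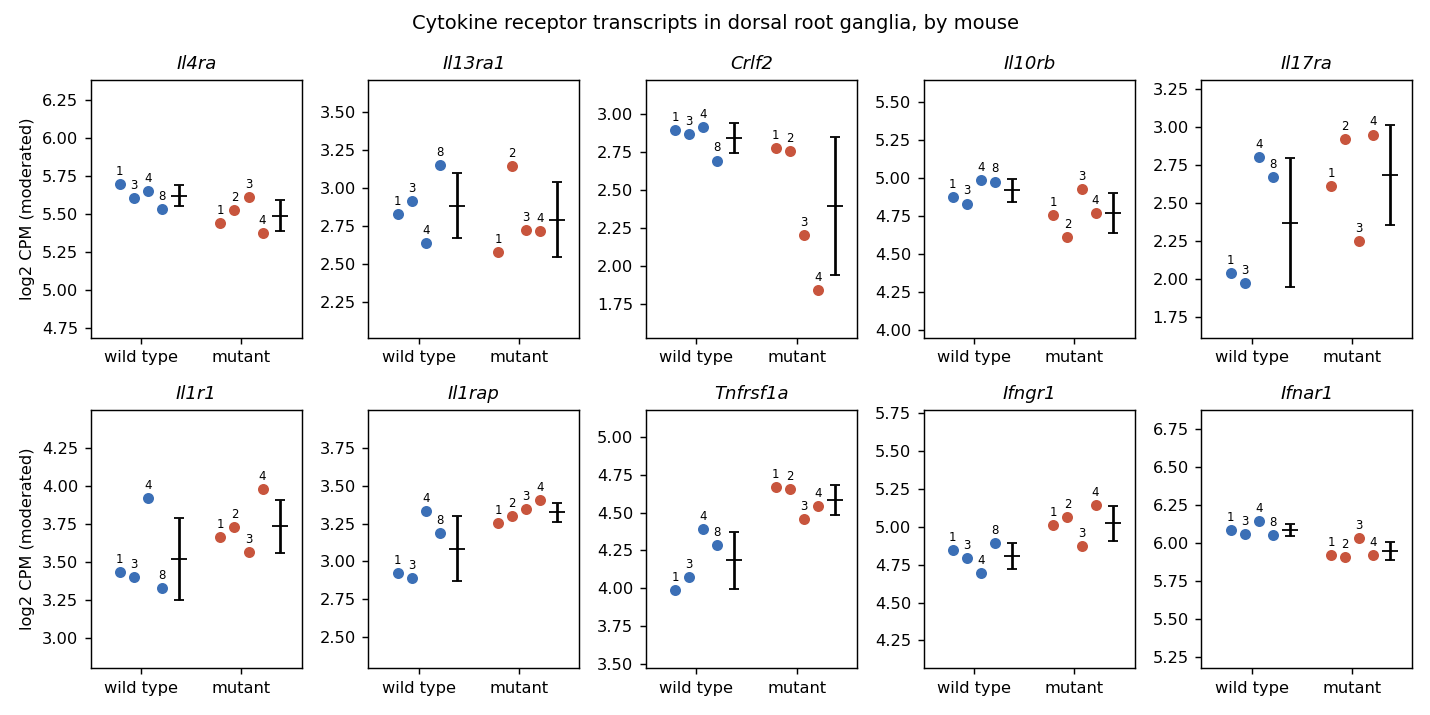
Level of each receptor transcript in every mouse, as moderated log2 CPM. Points are mice, labelled by the number in their name, bars are the mean and SD of 4 mice, and every panel spans the same height on the log2 axis. The 4 mutants lie above the 4 wild types for Tnfrsf1a and below them for Ifnar1; the groups overlap in the other 8 panels.

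Levels were compared between genes per length of exon, in CPM per kilobase. In the wild types the order was Ifnar1 at 11.4 ± 0.330, Ifngr1 at 9.74 ± 0.568, Il4ra at 8.16 ± 0.391, Il10rb at 7.87 ± 0.418 and Tnfrsf1a at 6.95 ± 0.920 CPM per kilobase (SD, n = 4). Crlf2 followed at 4.62 ± 0.325, Il13ra1 at 1.93 ± 0.298, Il1r1 at 1.78 ± 0.369, Il1rap at 0.728 ± 0.112 and Il17ra at 0.582 ± 0.179. The ranges of 4 wild types overlapped for Il4ra with Il10rb, Il10rb with Tnfrsf1a, Il13ra1 with Il1r1, and Il1rap with Il17ra. The other 5 neighbours in the order lay apart. The scale rests on the annotated exon length and not on the transcripts in use.

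**Figure D2:**
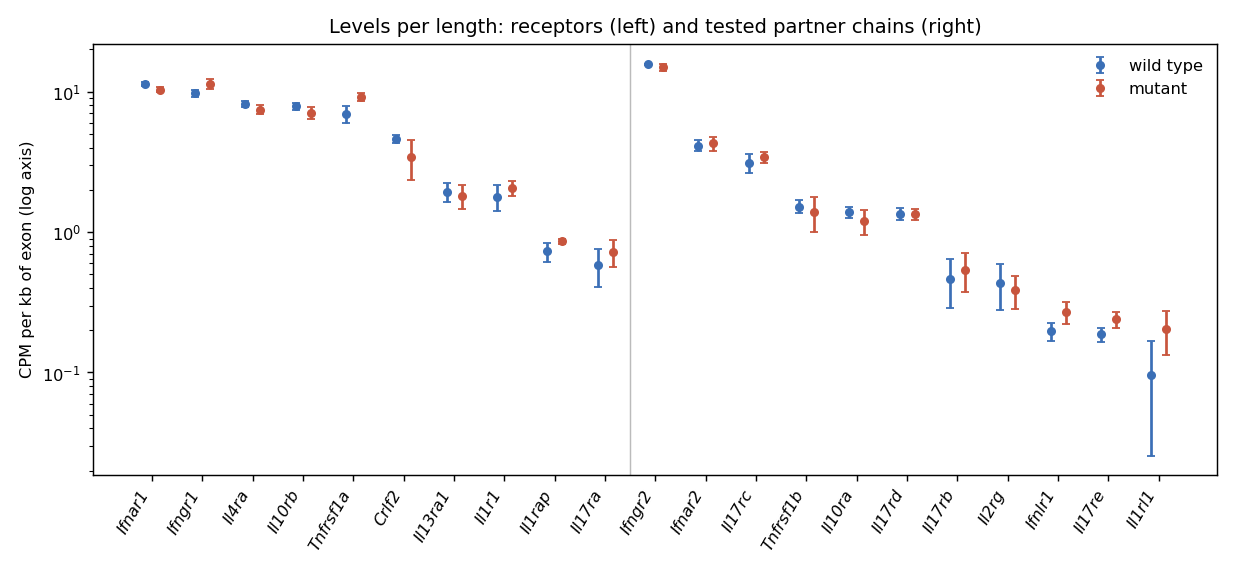
Mean level per kilobase of exon in wild type and mutant, on a log axis, with bars for the SD of 4 mice. The 10 receptors stand on the left and the 11 tested partner chains on the right, each ordered by the wild-type mean; Ifngr2 is the highest of all at 15.7 CPM per kilobase in wild type.

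The receptors for the type 2 cytokines, the interleukin-4 and thymic stromal lymphopoietin family tied to allergic itch, are Il4ra, Il13ra1 and Crlf2. Il4ra (ENSMUSG00000030748; chromosome 7, 125552120 to 125579474), the chain that binds interleukin-4, was at 5.70, 5.60, 5.65 and 5.54 log2 CPM in wild type against 5.44, 5.53, 5.61 and 5.37 in mutant. Mutants 1, 2 and 4 lay below all wild types, and mutant 3 lay among them. Its log2 difference came to -0.13 (SE 0.07; 95% interval -0.29 to 0.03; limma adjusted p = 0.331), from 284 to 386 reads per library. Within the wild types the level varied by 4.78% (coefficient of variation), close to the 5.32% that counting error alone would give. Positions here are on the GRCm38 build, from GENCODE. On the opposite strand Gm44876 overlaps 9.51% of the exon bases of Il4ra, and reads from the pair cannot be told apart where counting did not use the strand.

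Il13ra1 (ENSMUSG00000017057; chromosome X, 36112110 to 36171259), which completes the type II receptor for interleukin-4 and interleukin-13, was at 2.83, 2.92, 2.64 and 3.15 log2 CPM in wild type against 2.58, 3.15, 2.72 and 2.72 in mutant. Both groups had 1 library near 3.15, wild type 8 and mutant 2, and the groups overlapped over most of their range. The difference was -0.09 (SE 0.17; 95% interval -0.45 to 0.27; limma adjusted p = 0.801), from 38 to 68 reads. Single libraries set its size: it was -0.0034 without wild type 8, -0.02 without mutant 1, -0.17 without wild type 4 and -0.21 without mutant 2. The log2 ratio of Il4ra to Il13ra1 within a library was 2.74 ± 0.27 in wild type and 2.70 ± 0.24 in mutant (SD, n = 4).

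Crlf2 (ENSMUSG00000033467; chromosome 5, 109554709 to 109558993), the receptor chain for thymic stromal lymphopoietin, was at 2.89, 2.87, 2.92 and 2.70 log2 CPM in the wild types. In the mutants it was at 2.78, 2.76, 2.20 and 1.84. Mutants 1 and 2 were thus at the wild-type level, and mutants 3 and 4, with 28 and 23 reads against 45 to 56 in the wild types, were lower. The difference was -0.45 (SE 0.21; 95% interval -0.89 to -0.01), the furthest from 0 of the 10, and it was not called (limma adjusted p = 0.222). The mutants varied by 31.5% where counting error gives 17.2%, and the wild types by 7.04% where it gives 14.2%. Without mutant 4 the difference was -0.26 (limma adjusted p = 0.509), and without mutant 1 it was -0.58 (0.160).

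These 3 receptors were set beside the chains of the receptor for interleukin-31, another itch cytokine, which belongs to the interleukin-6 family. Il31ra was at 4.91 to 5.39 log2 CPM in wild type against 1.66 to 2.49 in mutant, and Osmr at 5.89 to 6.21 and 4.34 to 4.75. In each library the log2 level of Il31ra or Osmr was taken relative to Il4ra, Il13ra1 or Crlf2, giving 6 comparisons. All 6 ratios were lower in all 4 mutants than in any wild type, by 2.83 to 3.19 for Il31ra and by 0.95 to 1.30 for Osmr on the log2 scale. The fall of Il31ra and Osmr was known when they were chosen, so these ratios describe it again and were not tested. Other markers of the NP3 class of itch neurons were lower with them: of 7 tested, Il31ra and Osmr included, 7 were below 0 and 6 were called lower, among them Nppb, Sst and Cysltr2. The summed level of the 7 was 123 to 169 CPM in wild type against 32.3 to 39.8 in mutant. The part of this class in the contrast with the 3 receptors was not tested. The lower 95% bounds, as ratios to wild type, were 0.817 for Il4ra, 0.730 for Il13ra1 and 0.540 for Crlf2. All lie above the Il31ra ratio of 0.103, which is set here without its interval. Osmr fell less than Il31ra, so its contrast with these receptors is smaller.

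**Figure D3:**
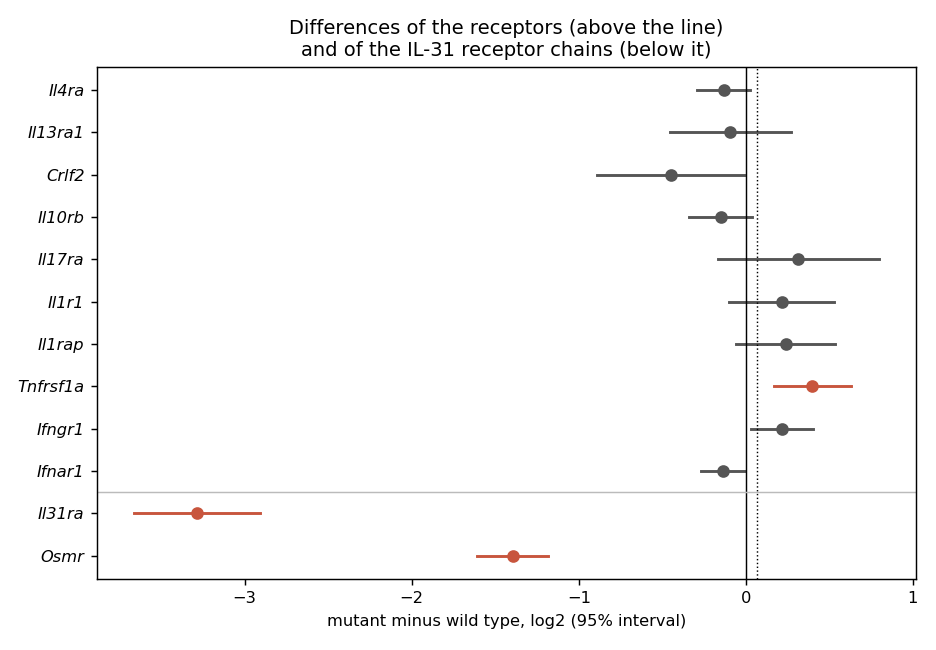
Difference between mutant and wild type on the log2 scale with its 95% interval from limma, for the 10 receptors above the grey line and Il31ra and Osmr below it. Red marks an adjusted p under 0.05, and the dotted line is the median of all genes tested, 0.07. Every receptor interval lies between -0.89 and 0.80, while Il31ra is at -3.28 and Osmr at -1.40.

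Il10rb, Ifngr1 and Ifnar1 are receptors of the interleukin-10 and interferon class. Il10rb (ENSMUSG00000022969; chromosome 16, 91406164 to 91425834), the second chain for interleukin-10, interleukin-22 and the lambda interferons, was at 4.87, 4.83, 4.99 and 4.98 log2 CPM in wild type against 4.76, 4.61, 4.93 and 4.77 in mutant. Mutant 3 lay among the wild types and the other mutants below them. The difference was -0.15 (SE 0.09; 95% interval -0.34 to 0.04; limma adjusted p = 0.351), and it was -0.10 without mutant 2 and -0.08 in the 6 samples with shared numbers. An annotated gene on the same strand, Gm21970, shares 14.9% of the exon bases of Il10rb. This is a share of annotated bases and not of reads, so the count of Il10rb is uncertain by an unknown amount.

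Ifnar1 (ENSMUSG00000022967; chromosome 16, 91485238 to 91507441), a chain of the type I interferon receptor, was at 6.08, 6.06, 6.14 and 6.05 log2 CPM in wild type against 5.92, 5.91, 6.04 and 5.92 in mutant. Every mutant was below every wild type, with mutant 3 closest. Groups lay apart in this way, in the lower direction, for 1 of the 10 receptors and for 4.92% of all genes tested (12.4% in either direction). The difference was small, -0.14 (SE 0.06; 95% interval -0.27 to -0.01), and was not called (limma adjusted p = 0.213). It rested on 370 to 529 reads per library, the most of any of the receptors. Its partner Ifnar2 differed by 0.05 (limma adjusted p = 0.860), and the log2 ratio of Ifnar1 to Ifnar2 was 2.28 ± 0.12 in wild type and 2.09 ± 0.18 in mutant (SD, n = 4), with overlap. Gm21970 also shares 9.46% of the exon bases of Ifnar2 on the same strand, so the same caution applies to its count.

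Ifngr1 (ENSMUSG00000020009; chromosome 10, 19591949 to 19610229), which binds interferon gamma, was at 4.84, 4.79, 4.70 and 4.89 log2 CPM in wild type against 5.01, 5.06, 4.87 and 5.14 in mutant. Mutant 3 fell just below wild type 8, and the other mutants lay above all wild types. The difference was 0.22 (SE 0.09; 95% interval 0.03 to 0.40; limma adjusted p = 0.160), not called. Ifngr2, the signalling partner of Ifngr1, differed by -0.07 (0.583). The log2 ratio of Ifngr1 to Ifngr2 was -1.06, -1.11, -1.18 and -0.99 in wild type against -0.91, -0.66, -0.91 and -0.72 in mutant, so that the groups did not overlap in this ratio. It was 1 of 9 ratios between receptor genes examined, Tnfrsf1a to Tnfrsf1b included, and 2 of the 9 did not overlap. The other was Il10rb to Ifnlr1, at 4.61 to 4.99 in wild type and 3.99 to 4.48 in mutant. Ifnlr1 had 4 to 10 reads. No share was computed for ratios of other genes. For single genes 12.4% of all tested lay apart, so 2 of 9 is not read as a result.

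Il17ra, Il1r1, Il1rap and Tnfrsf1a signal through adaptors. Il17ra (ENSMUSG00000002897; chromosome 6, 120463247 to 120487559), the shared chain for interleukin-17 cytokines, was at 2.04, 1.97, 2.80 and 2.67 log2 CPM in wild type against 2.61, 2.92, 2.25 and 2.95 in mutant. Wild types 4 and 8 were within the range of the mutants, and wild types 1 and 3 below it. The difference was 0.31 (SE 0.22; 95% interval -0.17 to 0.80; limma adjusted p = 0.454), the widest interval of the 10. Leaving out wild type 1 gave 0.20, and leaving out wild type 3 gave 0.18. Counts were 24 to 52 reads, and the wild types varied by 30.7% where counting error gives 16.6%.

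Il1r1 (ENSMUSG00000026072; chromosome 1, 40225080 to 40317257), the ligand-binding chain for interleukin-1, was at 3.43, 3.40, 3.92 and 3.32 log2 CPM in wild type against 3.67, 3.73, 3.57 and 3.98 in mutant. Wild type 4 stood with the highest mutant, and the other wild types lay below all mutants. Its difference was 0.22 (SE 0.15; 95% interval -0.10 to 0.53; limma adjusted p = 0.431), and it was 0.35 without wild type 4 and 0.13 without mutant 4. Il1rap (ENSMUSG00000022514; chromosome 16, 26581704 to 26730117), the accessory chain that Il1r1 needs to signal, was at 2.92, 2.89, 3.33 and 3.19 in wild type against 3.26, 3.30, 3.34 and 3.40 in mutant. The mutants were close together, and wild type 4 lay among them. The difference was 0.24 (SE 0.14; 95% interval -0.06 to 0.54; limma adjusted p = 0.344). The antisense gene Gm20319 overlaps 4.86% of the exon bases of Il1rap. The log2 ratio of Il1r1 to Il1rap was 0.43 ± 0.20 in wild type and 0.41 ± 0.14 in mutant (SD, n = 4).

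Tnfrsf1a (ENSMUSG00000030341; chromosome 6, 125349362 to 125362484) encodes TNF receptor 1, the receptor through which soluble tumour necrosis factor mainly signals. It was at 3.99, 4.07, 4.39 and 4.28 log2 CPM in wild type, from 98 to 152 reads, against 4.67, 4.65, 4.46 and 4.54 in mutant, from 141 to 168 reads. All 4 mutants were above all 4 wild types, with mutant 3 close to wild type 4. It was the 1 receptor of 10 whose groups lay apart in the higher direction, beside 7.5% of all genes tested. The mean went from 18.0 ± 2.38 to 23.7 ± 1.61 CPM (SD, n = 4), a difference of 0.40 on the log2 scale or 1.32-fold (SE 0.11; 95% interval 0.17 to 0.63; limma adjusted p = 0.0465). By exact permutation (two-sided) p was 0.0286, the lowest value that 4 against 4 samples allow. Any gene whose groups lie apart gets this value, as Ifnar1 did, so it adds no support beyond the separation itself. Tnfrsf1b encodes TNF receptor 2, a separate receptor that is counted here with the partner chains. It differed by -0.17 (limma adjusted p = 0.685). The log2 ratio of Tnfrsf1a to Tnfrsf1b was 1.58 ± 0.31 in wild type and 2.15 ± 0.36 in mutant, with overlap.

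The call of Tnfrsf1a lay close to the threshold, and 8 of 20 alternative analyses kept it. It was lost under median centring (0.30; limma adjusted p = 0.0991), quantile normalization (0.31; 0.105), a fit without the variance trend (0.40; 0.115) and removal of the trend with GC content (0.32; 0.0785). Leaving out wild type 1 (0.33; 0.139), 3 (0.36; 0.121) or 8 (0.43; 0.0564) ended the call, as did leaving out mutant 1 (0.37; 0.114), 2 (0.37; 0.113) or 4 (0.41; 0.0836). In the 6 samples with shared numbers it was not called with the number as a block (0.41; 0.107) or without it (0.41; 0.124). The difference stayed between 0.30 and 0.47 in all 20.

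**Figure D4:**
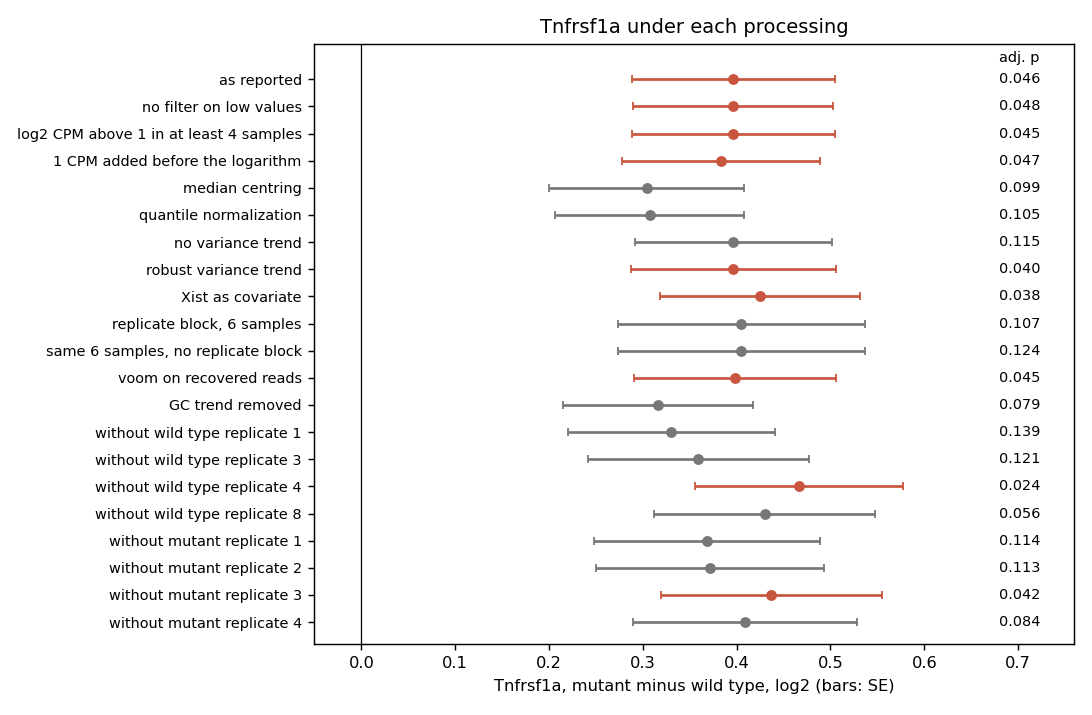
Difference of Tnfrsf1a between mutant and wild type on the log2 scale, with its SE as the bar, as reported and under each of 20 alternatives, with the limma adjusted p at the right. Red marks an adjusted p under 0.05, reached in 8 of the 20; all differences lie between 0.30 and 0.47.

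Markers of non-neuronal cells were mostly above 0 as well, as were 64.4% of all genes tested. The endothelial count below is near that share. Of tested macrophage markers 8 of 9 were above 0 and 1, Cd163, was called, and the summed level of the list of 10 was 60.5 to 94.5 CPM in wild type and 75.1 to 130 in mutant. All 6 fibroblast markers were above 0 with Dcn called (summed level 611 to 1222 and 794 to 1177 CPM), as were 5 of 6 Schwann cell markers with Ncmap and Drp2 called (2419 to 3162 and 2856 to 3437 CPM). For satellite glia it was 5 of 6 with Glul called (1798 to 2207 and 1976 to 2782 CPM), and for endothelium 4 of 6 with 0 called by limma or voom and 1 at an unadjusted p under 0.05 (63.8 to 95.9 and 67.6 to 104 CPM). The 5 tested skeletal muscle markers were above 0 with 0 called by limma or voom and 4 at an unadjusted p under 0.05, and 1 was called under median centring. The summed level of the 6 listed was 155 CPM in mutant 4 against 3.49 to 44.8 in the other 7 libraries. Lymphocyte markers had few reads, 0 to 2 per library for Cd3e, Cd3g, Ms4a1 and Nkg7 and 0 to 8 for Cd79a, and the mast cell markers Cpa3 and Mcpt4 had 3 to 19. Kit, on the same list, was not scarce, at 10.3 to 13.8 CPM per kilobase in wild type and 12.3 to 15.1 in mutant. Of the 3 genes tested on that list, 2 were above 0 and 0 were called. Under median centring 8 of 9 macrophage, 4 of 6 fibroblast, 5 of 6 Schwann cell, 4 of 6 satellite glia and 3 of 6 endothelial markers were above 0. The part of these cells in the difference of Tnfrsf1a was not tested.

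Partner chains and related receptors outside the 10 numbered 20, and 11 of them were tested. They are called partner chains for short, and Tnfrsf1b, a separate receptor, is among them. None was called by limma or by voom, and 1 had an unadjusted p under 0.05. Besides those given above, the log2 differences were -0.12 for Il2rg, the common gamma chain, -0.21 for Il10ra, the interleukin-10 binding chain, and 0.35 for Ifnlr1, the lambda interferon chain. Il2rg had 4 to 12 reads per library (SE 0.31), and Gm20489 on the same strand shares 30.5% of its exon bases. Within the interleukin-17 receptor family the differences were 0.14 for Il17rc, 0.21 for Il17rb, -0.01 for Il17rd and 0.29 for Il17re. Il17rb had 8 to 18 reads (SE 0.29) and Il17re 6 to 11 (SE 0.25), so these values are imprecise. Il1rl1, the receptor for interleukin-33, was at 1.02 (SE 0.44; limma adjusted p = 0.200), with 0 to 9 reads in wild type against 7 to 13 in mutant, and its unadjusted p was the one under 0.05. The median of the 11 was 0.05. Il7r, the partner of Crlf2, was not tested, with 1 to 4 reads per library, and the interleukin-13 decoy Il13ra2 had at most 1 read.

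Transcripts of the ligands were scarce. Of 16 ligand genes in the table, 7 had 0 reads in all 8 libraries, among them Il17a, Il22, Ifng and Ifnb1, and 13 had at most 3 reads in any library. The remaining 3 were Il4, Il33 and Il1b. Il4 had 38 to 65 reads and differed by 0.22 (limma adjusted p = 0.469), Il33, an alarmin of the interleukin-1 family, had 28 to 61 reads and differed by 0.42 (0.207), and Il1b had 0 to 4 reads and was not tested. Of the 2 tested, 0 were called by limma or voom, and Il33 had an unadjusted p under 0.05. At the depth of these libraries 3 reads correspond to 0.376 to 0.485 CPM. This floor was set and not measured, and it covers counting error alone. Some ligands had reads below it in single libraries, and such levels were too low to compare.

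Across the pathways outside the 10 receptors, 67 genes of 97 listed partner chains, ligands, kinases, adaptors, inhibitors and targets were tested, and 3 were called, 1 higher and 2 lower. That is 4.48% of them, against 5.46% of all genes tested. Their median difference was 0.02, against 0.07 over all genes. Jak1, the Janus kinase used by the receptors for interleukin-4, interleukin-10, thymic stromal lymphopoietin and the interferons, was at 9.05 to 9.12 log2 CPM in wild type against 8.72 to 8.85 in mutant. It fell by 0.31 (log2; SE 0.05; limma adjusted p = 0.00339). Stat3, the transcription factor activated by interleukin-10 and interleukin-6 family receptors, was at 8.96 to 9.07 in wild type against 8.65 to 8.87 in mutant and fell by 0.26 (SE 0.06; limma adjusted p = 0.0148). Neuron markers stood beside these falls as follows: 5 of 7 were below 0, where 64.4% of all genes tested were above 0. Of the 7, 1, Avil, was called lower (-0.22, limma adjusted p = 0.0203). The summed level of the 7 was 8148 to 8981 CPM in wild type against 8167 to 8795 in mutant. Rbfox3 was also lower in all mutants than in any wild type (-0.26; 0.0711), while Snap25 was higher in all (0.22; 0.0856). With the NP3 markers given above, the part of neurons in the falls of Jak1 and Stat3 was not tested. The other 9 kinases and STATs were not called, and of them Stat6 was picked for mention after its values were seen. Stat6, the factor of interleukin-4 signalling, was at 6.88 to 6.95 log2 CPM in wild type against 6.85 to 6.93 in mutant, a difference of -0.02 (SE 0.05; limma adjusted p = 0.856).

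Among the inhibitors 1 of 13 tested was called. At an unadjusted p under 0.05 there were 5, 4 higher and 1 lower, beside 21.3% of all genes. Il18bp was called only with wild type 4 left out. Nfkbia, which encodes the I-kappa-B alpha protein that holds NF-kB in the cytoplasm and is itself induced by NF-kB, was at 4.34, 4.32, 4.54 and 4.28 log2 CPM in wild type against 5.07, 4.70, 4.59 and 4.81 in mutant. All mutants were above all wild types, and it rose by 0.42 (SE 0.11; limma adjusted p = 0.0386). Like Tnfrsf1a it kept the call in 8 of 20 alternatives, with a difference of 0.33 to 0.49 throughout and a highest adjusted p of 0.120, without the variance trend. Its call was lost under median centring (0.33; 0.0917), quantile normalization (0.34; 0.0929) and the GC correction (0.34; 0.0681). Leaving out mutant 1 (0.107), mutant 2 (0.0590), mutant 4 (0.0855) or any 1 of wild types 1 (0.0983), 3 (0.0973) and 8 (0.0836) also ended it, as did restriction to the 6 samples with shared numbers, with the block (0.0797) or without it (0.114). The marker sums given beside Tnfrsf1a apply here too, and their part was not tested.

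Adaptors and target genes gave no call in the analysis as reported, and those named here were picked after their values were seen. Of 16 adaptors tested, 0 were called by limma or voom and 2 had an unadjusted p under 0.05, Irak4 at 0.57 and Tradd, the adaptor of TNF receptor 1, at -0.32 (limma adjusted p = 0.172 and 0.200). Of 14 tested targets, 0 were called by limma or voom and 2 had an unadjusted p under 0.05. These were Vcam1, an adhesion molecule induced by tumour necrosis factor, at 0.72 (SE 0.21; limma adjusted p = 0.0653), and Gbp2, a GTPase induced by interferon gamma, at -0.57 (SE 0.27; limma adjusted p = 0.232). Vcam1 was called with Xist as covariate, with wild type 4, wild type 8 or mutant 3 left out, and at an adjusted p under 0.1. The medians were 0.05 for adaptors and -0.01 for targets.

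**Figure D5:**
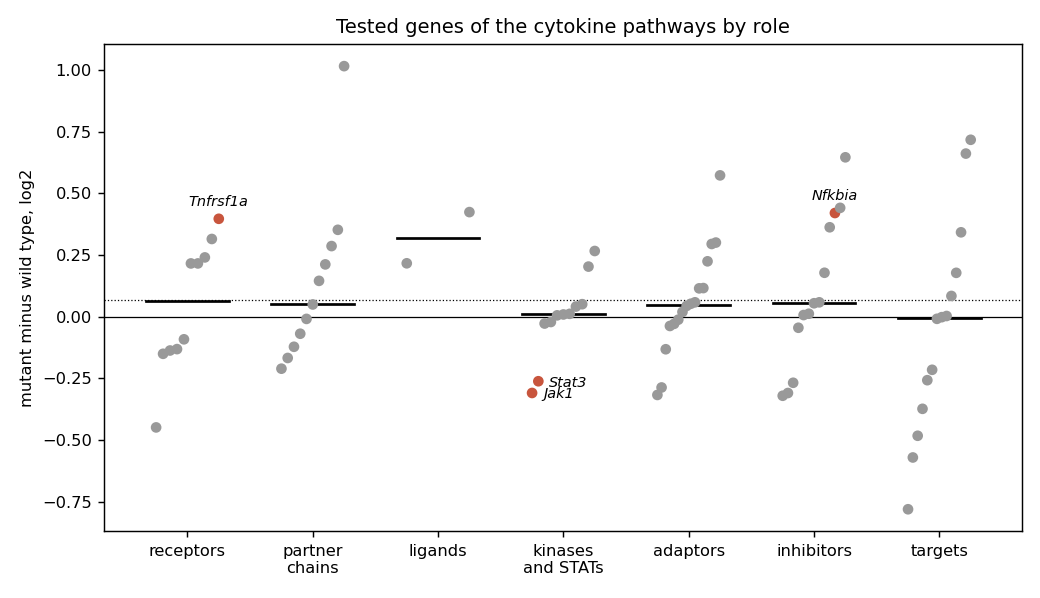
Difference between mutant and wild type on the log2 scale for every tested gene, grouped by role, with a black bar at each group's median. Red points are the 4 genes with a limma adjusted p under 0.05, Tnfrsf1a, Nfkbia, Stat3 and Jak1, and the dotted line is the median of all genes tested, 0.07.

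Genes with the closest profiles to the 2 receptors of smallest p were found by the root-mean-square difference of mean-centred log2 CPM over the 8 samples, among 15030 genes. For Tnfrsf1a they were Fyco1 at 0.054, Rhobtb3 at 0.057 and Nabp1 at 0.069. For Ifngr1 they were Idnk at 0.036, Adra2c at 0.046 and Htr1d at 0.050. With 8 samples and this many genes, close profiles are a description of these libraries alone.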

How the data were processed

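The members and gene lists were chosen with earlier results of these data known. A single table in moderated log2 CPM was deposited by the authors, with 41422 lines and 40800 distinct gene identifiers; repeated identifiers were used once. Per the submitters' processing notes, Salmon 0.11.1, DESeq2 and the build mm9 were named, with no role or order; the annotation release and strand use are not given in the sources used here. The 8 columns were matched to samples by genotype and number. Their names also carry numbers of unstated meaning. The leading numbers of the mutants are consecutive and all lie below those of the wild types, so they separate the genotypes completely. If they mark a batch, it cannot be told apart from genotype. Subtracting the shared floor of -1.79 on the linear scale gave 100% whole reads (within 0.1 read).

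Genes with log2 CPM above 0 in at least 4 of 8 samples, 15030 in all, were fitted with limma 3.58.1 in R 4.3.3 (mean-variance trend, no covariate, two-sided, Benjamini-Hochberg over all genes). The moderated scale understates fold changes of low genes. CPM in the text is without the prior. Positions and exon lengths come from GENCODE M21 (GRCm38), not the authors' build, matched by identifier for 169 of 169 listed genes; exon bases shared with another gene were counted on either strand. Named were the 10 receptors, tested partner chains, called genes of the other lists, genes behind small counts (picked after their values were seen), ligands above 3 reads and the 3 nearest profiles of 2 receptors. The procedure was tested on simulated data with 2-fold changes, a test that does not bear on smaller differences such as those of the receptors. Replicate libraries of a group differed beyond sampling noise (chi-square per degree of freedom 2.61 to 6.64). Alternatives covered the filter, the prior, scaling, the variance model, Xist as covariate, each sample left out, a replicate block and the threshold; voom on the recovered reads and removal of each sample's GC trend were added after seeing the data. Tables and plots used Python 3.11.15, pandas 2.3.3 and matplotlib 3.10.9.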

Additional observations from a re-analysis of the deposited data

Results flagged for a closer look

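Taking each receptor in each genotype gives 20 groups of 4 mice, and 1 of them held a value well outside the rest; about 1 in 20 would by chance. Ifnar1 in mutant 3 was at 6.04 log2 CPM against 5.91 to 5.92 in the other mutants, a gap of 0.901 of the group's range, above Dixon's 95% critical value. Without mutant 3 the Ifnar1 difference was -0.17 (limma adjusted p = 0.160).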

How the results depend on the processing

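No receptor changed direction in any of 20 alternatives, and the 9 that were not called stayed so in each; the lowest adjusted p among them was 0.0630, for Ifnar1. Median centring moved 7 of the 10 by over 1.5 times without a change of call: Il4ra to -0.22, Il13ra1 to -0.18, Il10rb to -0.24, Ifnar1 to -0.23, and Il1r1, Il1rap and Ifngr1 to 0.12, 0.15 and 0.12. The number of receptors called higher was 0 with quantile normalization, median centring, the GC correction, a fit lacking the variance trend and in the 6 samples with or without the replicate block, and 0 to 1 with a sample left out; Tnfrsf1a is that receptor. Of the other pathway genes, those called higher numbered 0 under the same alternatives, 2 (Nfkbia and Vcam1) with Xist as covariate or at an adjusted p under 0.1, and 0 to 3 with a sample left out, and those called lower numbered 0 without the variance trend and 1 to 2 with a sample left out. Jak1 kept its call in 19 of 20 alternatives and Stat3 in 18, lost without the variance trend (0.0654 and 0.113) and, for Stat3, without wild type 1 (0.0569). Over all genes, 423 were higher and 397 lower; the counts were 67 and 75 without the variance trend, 204 and 706 under median centring, 224 and 727 with the GC trend removed, 876 and 612 at an adjusted p under 0.1, and 271 higher under quantile normalization. With a sample left out they ranged from 174 to 572 higher and 230 to 427 lower. The share called higher thus went from 51.6% to 22.4% under median centring, 23.6% with the GC trend removed and 39.1% under quantile normalization; median centring moved the median of all genes from 0.066 to -0.026; other causes were not tested. The labels give both genotypes the numbers 1, 3 and 4 and do not say whether these pair the samples. Same-numbered deviations correlated at 0.081, 0.041 and 0.058. Correlations over all genes cannot decide whether such samples share a litter or handling, so pairing is unknown. Blocking on the number (replicate block, 6 samples), 326 genes were higher and 345 lower, and without it 180 and 267. Depth limits Il17ra, Crlf2 and Il13ra1 most, with 23 to 68 reads per library.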

Other observations

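The following values were picked after they were seen, and the pattern was not tested. How many of the other listed targets share it is not given. Among the wild types, 3 transcripts induced by interferon had most reads in the same 2 libraries. Gbp2 had 58 and 62 reads in wild types 1 and 3 and 141 and 143 in wild types 4 and 8, Gbp3 had 30 and 33 against 76 and 81, and Cxcl10 had 6 and 4 against 19 and 33. The mutants had 44 to 79 reads of Gbp2, 39 to 51 of Gbp3 and 3 to 9 of Cxcl10. Wild types 4 and 8 were also the higher 2 wild types for Il17ra, Il1rap and Tnfrsf1a, at 2.80 and 2.67, 3.33 and 3.19, and 4.39 and 4.28 log2 CPM. The same held for Il10rb, at 4.99 and 4.98, which differed by -0.15 between mutant and wild type where those receptors were above 0. The remaining receptors did not have this order.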
